A study of Mus musculus with 2 samples.

Results

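Genes of cellular iron handling, 10 in number, were followed in NIH3T3 cells, an established line of mouse embryonic fibroblasts. They were chosen by name: Tfrc, Steap3 and Slc11a2 for uptake, Fth1 and Ftl1 for storage, Ncoa4 for ferritin turnover, Slc40a1 for export, and Aco1, Ireb2 and Fbxl5 for sensing. All 10 were found among the 22838 genes of the table, and all 10 had a mean of at least 1 FPKM (fragments per kilobase of transcript, scaled to mapped reads), the limit above which a gene is called measured here. Messenger RNA was sequenced from 1 untreated library and 1 library of cells given 100 µM ALA for 16 h, with no other treatment, genotype or time named in the labels. The labels leave ALA as an abbreviation. In work on heme, the subject of the series title, it denotes δ-aminolevulinic acid, the precursor that commits glycine and succinyl-CoA to heme.

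Iron enters most cells as transferrin-bound ferric iron through the transferrin receptor, is reduced in the endosome, and passes into the cytosol through a divalent metal transporter. What is not used is stored in ferritin or leaves through ferroportin. The iron regulatory proteins IRP1 and IRP2 bind a hairpin, the iron responsive element (IRE), when cytosolic iron is low. A bound IRE in a 3' UTR protects the mRNA from decay, as for the transferrin receptor, and a bound IRE in a 5' UTR blocks translation, as for ferritin and ferroportin. Iron lack is thus known to raise Tfrc mRNA and iron loading to lower it, whereas ferritin output is set mostly after transcription. Heme acts on the same genes by another route: it releases the repressor BACH1 from the genes of ferritin, ferroportin and heme oxygenase. The comparison asks whether IRP-controlled mRNAs differ in the direction of iron loading or of iron lack.

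The IRE hairpins are printed first because they are the letters that IRP1 and IRP2 read, and they separate the members into a stabilised class and a translationally repressed class. Each was found in the GENCODE vM21 transcripts of GRCm38, written as RNA 5′ to 3′, with the unpaired C and the 6-base loop CAGUGN in capitals. A match needed that loop, 5 paired bases closing it, a C just before them, and at least 3 of 5 further pairs below the C, with up to 2 unpaired bases between; G-U pairs counted. Only the mRNA strand was searched.
Tfrc, chr16:32631219-32631247, plus strand: aauuauCggaagCAGUGCcuuccauaauu
Tfrc, chr16:32631598-32631626, plus strand: cauuauCgggagCAGUGUcuuccauaaug
Tfrc, chr16:32631663-32631691, plus strand: cuauauCggagaCAGUGAucuccauaugu
Tfrc, chr16:32631710-32631738, plus strand: aauuauCgggaaCAGUGUuucccauaauu
Slc11a2, chr15:100395152-100395181, minus strand: agccauCagagcCAGUGUguuucuaugguu
Fth1, chr19:9982732-9982760, plus strand: uuccugCuucaaCAGUGCuugaacggaac
Ftl1, chr7:45459779-45459807, minus strand: gucuugCuucaaCAGUGUuugaacggaac
Slc40a1, chr1:45925465-45925493, minus strand: caacuuCagcuaCAGUGUuagcuaaguuu

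The 4 Tfrc hairpins lay in the 3' UTR, in the last of 19 exons, 895 to 1386 bases after the stop codon. The Slc11a2 hairpin lay 44 bases after the stop codon in the last of 16 exons and needed 1 unpaired base on the 3' side of its upper stem. Not every annotated form carries its gene's hairpin: it was found in 1 of 7 coding transcripts of Slc11a2, 1 of 3 of Tfrc, 1 of 4 of Slc40a1, 2 of 3 of Ftl1 and 4 of 5 of Fth1. Whether the annotated forms without a match have complete UTRs was not checked, so these counts do not show how much mRNA lacks the IRE. A gene-level value sums all forms of a gene, so IRE-bearing forms could not be followed by themselves for any of the 5. The hairpins of Fth1, Ftl1 and Slc40a1 lay in the first exon, in the 5' UTR, 126, 164 and 218 bases before the start codon. With a fully paired upper stem, a match was present in the 5' UTR of 18 of 19317 genes (0.0932%) and in the 3' UTR of 78 of 19403 genes (0.402%). With 1 unpaired base allowed on the 3' side, as in Slc11a2, a further kind of match was found in the 3' UTR of 160 genes (0.825%). No match was found in Aco1, Ireb2, Fbxl5, Ncoa4 or Steap3. These searches describe letters and pairing, and a match is no measurement of binding.

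**Figure D1:**
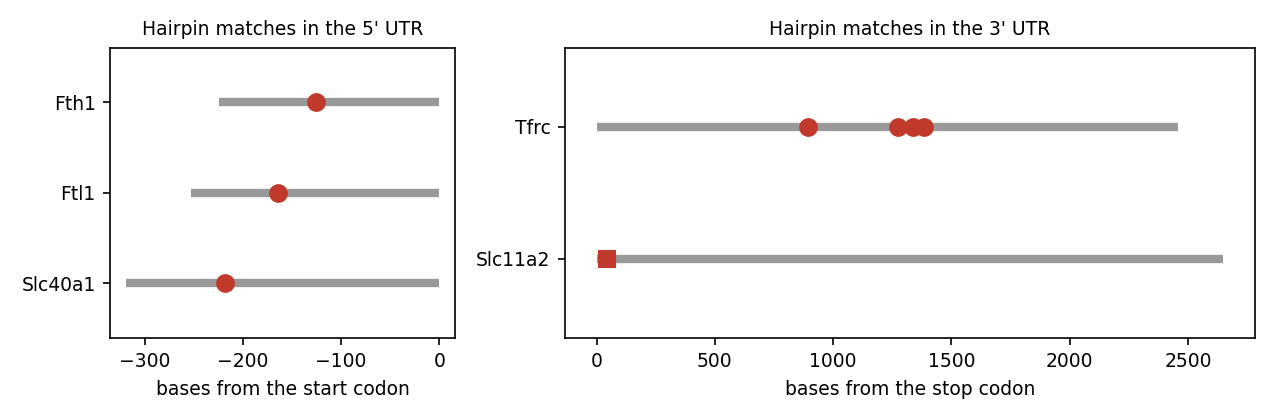
Position of IRE-like hairpins in the untranslated regions of the 5 members that hold one, in bases from the start codon (left, negative values lie before it) or from the stop codon (right). Grey bars show the length of the UTR in the annotated transcript, circles a fully paired upper stem and the square a stem with 1 unpaired base; Tfrc holds 4 matches between 895 and 1386 bases after the stop codon.

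The libraries and the cell label were checked first. The FPKM values summed to 540963 without and 512324 with ALA, and the step size of low values gave depths of about 24600000 and 33100000 reads. All 8 fibroblast markers were measured, from 19.7 to 2367 FPKM untreated and from 21.0 to 1896 FPKM with ALA. Of these, 7 were lower with ALA, Thy1 the most at -0.62, and the summed level was 7855 FPKM untreated and 6568 FPKM with ALA. Of 7 macrophage markers 2 were measured, Cd14 and Lyz2, and the summed level of all 7 was 29.0 FPKM untreated and 17.0 FPKM with ALA. Emr1 and Csf1r, defining genes of macrophages, were listed at 0 in the untreated library and at 0.0113 and 0.0466 FPKM with ALA. Of 7 erythroid markers only Epor was measured. The erythroid sum was 2.50 and 1.84 FPKM, with Alas2 and Klf1 at 0 in both libraries. All 5 hepatocyte markers lay under 0.1 FPKM. Of the 4 epithelial markers only Cdh1 was measured, at 1.23 FPKM untreated and 0.944 FPKM with ALA. The summed macrophage level was thus lower with ALA through Cd14 and Lyz2, while the other 5 were higher with ALA at low levels, such as Cd68 at 0.237 and 1.40 FPKM and Ptprc at 0.367 and 0.754 FPKM. Their part and that of the fibroblast shift in the iron values was not tested.

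Differences are given as log2((ALA + 1)/(untreated + 1)) of the FPKM values, a scale that shrinks the change of low genes, and a fold is the plain FPKM ratio. Each group is a single library, so nothing below was checked against replicates and no p-value could be computed. Brackets hold an approximate 95% counting interval, which rests on the estimated depth and the longest annotated transcript and leaves out variation between cultures. As a second yardstick, each member is set beside the measured genes whose mean FPKM lies within 2-fold of its own, called genes of like level. A gene is called apart at 1.5-fold or more on the log2 scale, a log2 ratio of 0.58 in either direction.

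With ALA, 8 members were higher and 2 lower, and their median log2 ratio was 0.22, against -0.02 over all 10929 measured genes. The members apart by 1.5-fold were Slc40a1 and Tfrc, both higher, which is 2 of 10, and none was lower by that much. Over all measured genes 13.1% were apart by 1.5-fold, 5.90% higher and 7.16% lower. At 2-fold 3.50% of all measured genes were apart, and no member was, on the log2 scale. The count of 2 is small, and the list was chosen with results of these libraries known. With equal library totals the split over all measured genes turned from 645 higher and 782 lower to 845 higher and 632 lower, while the members at 1.5-fold stayed at 2 higher and 0 lower.

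**Figure D2:**
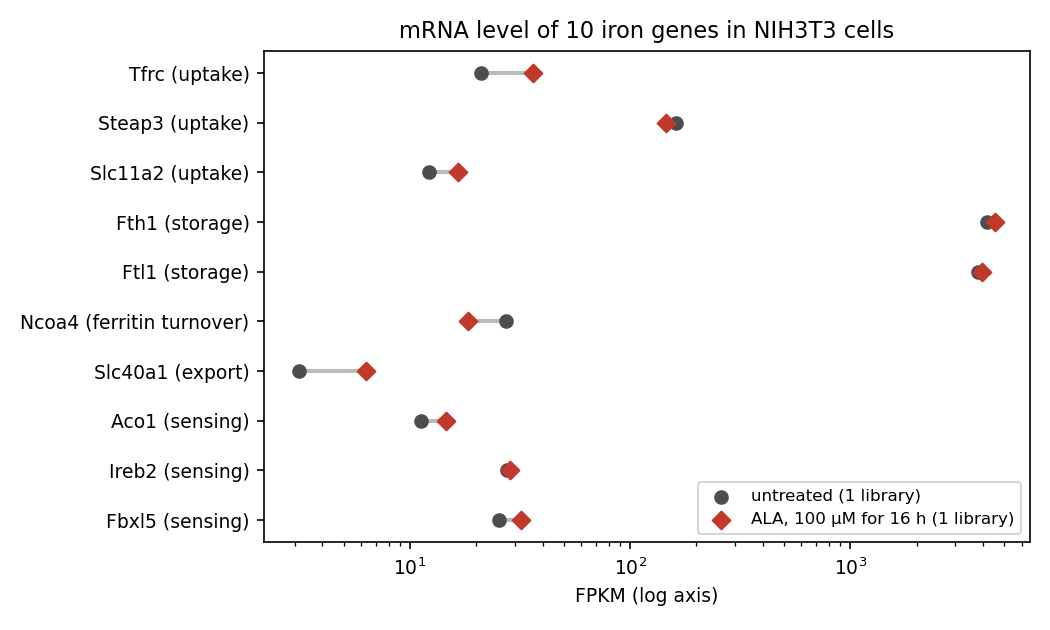
FPKM of the 10 members (log axis) in the untreated library (grey circle) and the ALA library (red diamond), 1 library each, grouped by role. Fth1 and Ftl1 lie between 3792 and 4540 FPKM in both libraries, while Slc40a1 moves from 3.13 to 6.31 FPKM and Tfrc from 21.0 to 36.1 FPKM.

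The uptake genes differed in direction. Tfrc, which encodes the transferrin receptor, had 21.0 FPKM without and 36.1 FPKM with ALA. It was therefore 1.72-fold higher with ALA, a log2 ratio of 0.75 [0.69 to 0.82], on about 2424 and 5613 reads. Of 3869 genes of like level, 1.29% had a log2 ratio as high or higher, and the middle 95% of them ran from -0.67 to 0.62. Tfrc was the only member outside the range of its genes of like level. The gene lies on the plus strand of chromosome 16, from 32608920 to 32632794, and shares no 41-base stretch, the length of a read, with another annotated gene. A higher Tfrc mRNA is the direction known for iron lack and opposite to that known for iron loading; IRP activity was not measured.

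Slc11a2, the divalent metal transporter DMT1, had 12.2 FPKM without and 16.6 FPKM with ALA. It was higher by a log2 ratio of 0.41 [0.32 to 0.50], under the 1.5-fold limit, and 10.1% of its 4639 genes of like level were as high or higher. Its difference had the sign of the Tfrc difference and was within the range of genes of like level, from -0.76 to 0.72. It is a minus-strand gene of chromosome 15 (100387898 to 100425072), and 6.33% of its exon bases overlap Gm5475, listed at 0 and 0.0908 FPKM.

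Steap3, the endosomal ferrireductase that turns ferric into ferrous iron after receptor uptake, had 162 FPKM without and 146 FPKM with ALA. Its log2 ratio was -0.15 [-0.18 to -0.12], and 25.7% of genes of like level were as low or lower. Steap3 was the most abundant member after the ferritins. Its mRNA exceeded that of Tfrc 7.71-fold without ALA and 4.04-fold with it. The receptor and the reductase of the same endosomal route thus stood closer in mRNA level with ALA, through a higher Tfrc and a slightly lower Steap3.

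The ferritin genes differed by 1.08-fold for Fth1 and 1.04-fold for Ftl1, both higher with ALA. Fth1, the heavy chain with the ferroxidase center, had 4193 FPKM without and 4540 FPKM with ALA, at a log2 ratio of 0.11. Ftl1, the light chain that promotes core formation, had 3792 and 3950 FPKM, a log2 ratio of 0.06. By level Fth1 ranked 5 among all genes without ALA and 4 with it, and Ftl1 ranked 6 in both. Together they made up 1.48% of the summed FPKM untreated and 1.66% with ALA. The other 8 members together held 290 FPKM untreated and 298 FPKM with ALA. The heavy chain mRNA exceeded the light chain mRNA 1.11-fold in the untreated and 1.15-fold in the ALA library. The counting interval was 0.11 to 0.12 for Fth1 and 0.04 to 0.07 for Ftl1, without the variation between cultures, which was not measured. Among the 20 genes of level like Fth1 the middle 95% ran from -0.36 to 0.13, and among the 30 like Ftl1 from -0.47 to 0.24, which hold both values. Because iron acts on ferritin through translation, these mRNA values do not show the amount of ferritin protein.

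The identity of the Ftl1 reads is uncertain. Of its 41-base stretches 61.1% also occur in other annotated genes, and Ftl1-ps1, the largest partner, holds 50.5% of them. For Fth1 the share was 2.05% and for Ncoa4 18.2%, all of the latter in Gm6768. None of the pseudogenes named in this paragraph has a row of its own in the table, so no sum with them could be formed. Fth1 lies on the plus strand of chromosome 19 from 9980598 to 9985098, and Ftl1 on chromosome 7, minus strand, from 45457944 to 45459884.

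Ncoa4, the receptor that carries ferritin to the lysosome for breakdown and so frees its iron, had 27.4 FPKM without and 18.4 FPKM with ALA. It had the lowest ratio of the 10 members, a log2 ratio of -0.55 [-0.62 to -0.48], or 1.49-fold lower, just under the limit. Of 4257 genes of like level, 4.82% were as low or lower, and their middle 95% ran from -0.71 to 0.65. Ferritin heavy chain mRNA exceeded Ncoa4 mRNA 153-fold untreated and 247-fold with ALA. The gene lies on the plus strand of chromosome 14, from 32159865 to 32179855. NCOA4 protein is itself known to be degraded when iron is high, a step that mRNA values do not show.

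Slc40a1, which encodes ferroportin, the only known iron exporter of mammalian cells, had 3.13 FPKM without and 6.31 FPKM with ALA. It was 2.02-fold higher, the largest ratio of the 10 members, with a log2 ratio of 0.82 [0.67 to 0.98] on about 287 and 779 reads. It was also the least abundant member in both libraries. Genes at that level scattered widely: of 3200 genes of like level 128 were as high or higher, and the middle 95% ran from -1.05 to 0.98. The value therefore stayed inside their range, although it was larger than that of Tfrc. It is a minus-strand gene of chromosome 1 (45908068 to 45926523). Tfrc mRNA exceeded Slc40a1 mRNA 6.72-fold untreated and 5.73-fold with ALA, so the importer and the exporter were higher by similar factors. Whether single cells in these bulk libraries held more of an mRNA, or more cells held it, cannot be told apart for any member.

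The sensors differed by less than 1.5-fold, each with a positive log2 ratio. Aco1, which encodes IRP1, an iron-sulfur protein that is a cytosolic aconitase when its cluster is present, had 11.2 FPKM without and 14.5 FPKM with ALA. Its log2 ratio was 0.35 [0.25 to 0.45], and 13.9% of genes of like level were as high or higher. Ireb2, which encodes IRP2, had 27.7 and 28.4 FPKM, a log2 ratio of 0.04 whose counting interval of -0.02 to 0.10 includes 0. Fbxl5, the iron-binding ubiquitin ligase subunit that marks IRP2 for degradation when iron is present, had 25.4 and 31.9 FPKM. Its log2 ratio was 0.32 [0.25 to 0.39], and 12.7% of genes of like level were as high or higher. Ireb2 mRNA exceeded Aco1 mRNA 2.48-fold untreated and 1.96-fold with ALA. Both sensors are regulated mainly as proteins, IRP1 through its cluster and IRP2 through its stability, and neither is seen here. Aco1 lies on chromosome 4 from 40143081 to 40198338, Ireb2 on chromosome 9 from 54863789 to 54912530, and Fbxl5 on chromosome 5 from 43744615 to 43821638.

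The order of the levels was Fth1, Ftl1 and Steap3 at the top and Slc11a2, Aco1 and Slc40a1 at the bottom in both libraries. Between them the order changed: it was Ireb2, Ncoa4, Fbxl5 and Tfrc untreated, and Tfrc, Fbxl5, Ireb2 and Ncoa4 with ALA. Tfrc passed from the lowest to the highest of these 4, and Ncoa4 became the lowest. Untreated, these 4 genes spanned only 21.0 to 27.7 FPKM, and with 1 library each the spread needed to separate neighbours is not known.

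**Figure D3:**
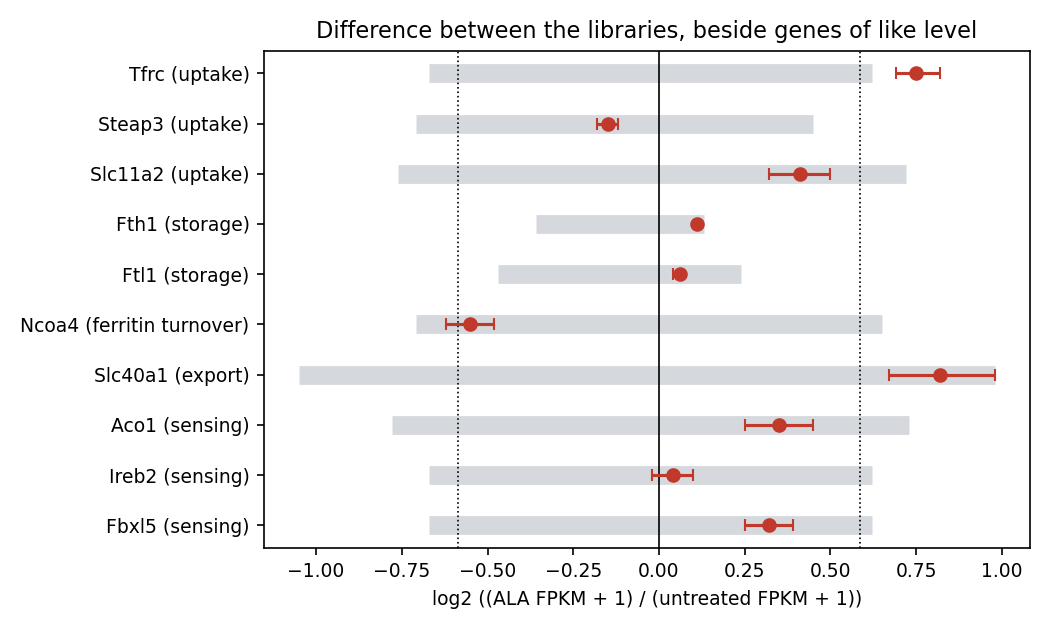
log2 ratio of ALA to untreated for the 10 members (red points; bars are approximate 95% counting intervals) over the middle 95% of genes within 2-fold of the same mean FPKM (grey bars). Dotted lines mark 1.5-fold: Tfrc at 0.75 lies beyond its grey bar, Slc40a1 at 0.82 lies inside a wider one, and Ncoa4 at -0.55 is the lowest.

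By class of IRE, the members with a hairpin match in the 3' UTR, Tfrc and Slc11a2, were both higher with ALA at the gene level. Other mRNAs reported to carry a 3' UTR IRE did not follow. Pfn2, the actin-binding profilin 2, and Cdc42bpa, a kinase of the cytoskeleton, both had a log2 ratio of 0.05. Cdc14a, a phosphatase, was lower, from 2.58 to 1.40 FPKM, at a log2 ratio that rounds to -0.58 and lies just short of the 1.5-fold limit. Over the 5 reported genes the median was 0.05, with 1 apart upward and 0 downward, or 1 downward with a pseudocount of 0.1 FPKM. Among 56 measured genes with a fully paired hairpin match in the 3' UTR, chosen by sequence alone, the median log2 ratio was 0.04. Of these, 2 were at least 1.5-fold higher, Tfrc and Gcdh, and 4 at least 1.5-fold lower, Anapc7, Tubgcp5, Zbtb4 and Srr. With equal library totals the counts were 3 and 3. Counts of 2 and 4 among 56 lie near the 5.90% and 7.16% of all measured genes.

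Of the 5' UTR class, Fth1 and Ftl1 were within 1.08-fold and Slc40a1 was 2.02-fold higher. App, the amyloid precursor protein gene, had 110 and 103 FPKM, at -0.09. App is in this class by report alone, since no hairpin match was found in it. Epas1, which encodes HIF-2α, was near 0.1 FPKM in both libraries and Alas2, the erythroid ALA synthase, was listed at 0. Of the 7 genes reported to carry a 5' UTR IRE 5 were measured, with Slc40a1 alone apart by 1.5-fold. Among 14 measured genes with a fully paired match in the 5' UTR the median was 0.07, and Slc40a1 and Pdgfa, a growth factor gene, were apart, both upward. Over all measured genes 5.90% were higher by that much, and with a pseudocount of 5 FPKM 0 of the 14 were apart.

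Members with a known transcriptional control can be read beside other genes under the same control. Genes reported as BACH1-controlled were higher with ALA in 6 of 6 cases, with a median of 0.45, where 5222 of all 10929 measured genes were higher. Of the 6, Hmox1, the inducible heme oxygenase that frees iron from heme, was at 1.05, Gclm, of glutathione synthesis, at 0.66, and the quinone reductase gene Nqo1 at 0.25. Slc40a1 at 0.82 was among 3 of the 6 that were at least 1.5-fold higher, against 5.90% of all measured genes, and with a pseudocount of 5 FPKM 2 of the 6 were. The ferritin genes of the same list were at 0.11 and 0.06. Of 5 genes reported as HIF-controlled 3 were measured and went both ways, with Tfrc and Slc11a2 higher and Ndrg1 lower. Ndrg1, known to rise with iron chelation, went from 161 to 72.5 FPKM, at -1.14. Cybrd1, the duodenal ferrireductase, was at 0.374 FPKM untreated and 0.0213 FPKM with ALA, under the limit for measured genes. The direction of Ndrg1 is opposite to the one known for iron lack, and that of Tfrc is the one known for it. The part of BACH1, HIF or IRP in any of these values was not tested. Srrd, the gene of the series title, was at 2.11 FPKM untreated and 9.76 FPKM with ALA.

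The rest of the iron pathway was described with 45 further genes, of which 44 were in the table and 30 measured. Of the 30, 11 were higher and 19 lower with ALA (14 and 16 with equal library totals). On the log2 scale none was 1.5-fold higher, and Hfe and Cp were at least 1.5-fold lower. With a pseudocount of 0.1 FPKM 3 genes were lower by that much. The median log2 ratio of the 30 was -0.08, against -0.02 over all measured genes. Hfe, the partner of transferrin receptors whose loss causes hemochromatosis, went from 5.49 to 2.68 FPKM, at -0.82 [-0.98 to -0.65]. Cp, the ferroxidase ceruloplasmin that works with ferroportin, went from 8.85 to 5.03 FPKM, at -0.71 [-0.83 to -0.59]. Both lay inside the middle 95% of genes of like level, of which 5.85% were as low as Hfe or lower and 5.60% as low as Cp or lower, and 2 of 30 is close to the 7.16% of all measured genes at least 1.5-fold lower. Heph, another ferroxidase gene, was listed at 0 in both libraries.

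In uptake and ferrireduction 10 of 16 genes were measured, 4 higher and 6 lower. The sorting nexin gene Snx3, needed for receptor recycling, had the highest mean of both libraries, at 112 and 113 FPKM. The reductase gene Steap1 was the highest at 0.46, from 87.4 to 120 FPKM, and Steap2 was at -0.08. Slc39a8, a transporter of zinc, manganese and iron, was at -0.44. Tfr2, the second transferrin receptor gene, was listed at 0 untreated and at 0.00861 FPKM with ALA, and the transferrin gene Trf lay under 0.1 FPKM in both libraries. Steap4 was listed at 0 untreated and had 0.410 FPKM with ALA.

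Among storage and chaperone genes 1 of 4 measured members was higher, and 2 with equal library totals. Pcbp2, an iron chaperone and RNA-binding protein, was the most abundant, at 245 and 217 FPKM (-0.18), and the glutaredoxin gene Glrx3 was the lowest at -0.41. Both values are uncertain: 30.2% of the Pcbp2 exon bases overlap Map3k12, and Glrx3 shares 15.6% of its 41-base stretches with Gm12669, which went the other way, from 68.0 to 131 FPKM. Of 5 ferritin turnover genes 2 were higher. Tax1bp1, an autophagy receptor that works with NCOA4, was at 57.9 and 60.5 FPKM (0.06), and Herc2, the ubiquitin ligase for NCOA4, was at 0.22. The other 3, Atg5, Rb1cc1 and Atg7, all of autophagy, were lower at -0.34, -0.16 and -0.11. Of the ligase subunits that act with FBXL5, Skp1a was the most abundant at 139 and 148 FPKM (0.09), Cul1 was at 0.15 and Rbx1 at -0.25.

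Of the 9 genes for export and its control, 2 were measured, Cp and Prnp. Prnp, the prion protein gene, was at 158 and 180 FPKM (0.19). The hepcidin genes Hamp and Hamp2 were listed at 0 in both libraries. Of 6 mitochondrial iron genes 5 were lower, but 3 with equal library totals or equal upper quartiles. Slc25a37, the mitochondrial iron importer mitoferrin 1, went from 16.3 to 10.7 FPKM, at -0.56, and its relative Slc25a28 was at -0.41. The plain ratio of Slc25a37 was 1.52-fold lower, while its log2 ratio lies just short of the 1.5-fold limit. The transporter gene Abcb10, at -0.02, is among those whose sign depends on the scaling.

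**Figure D4:**
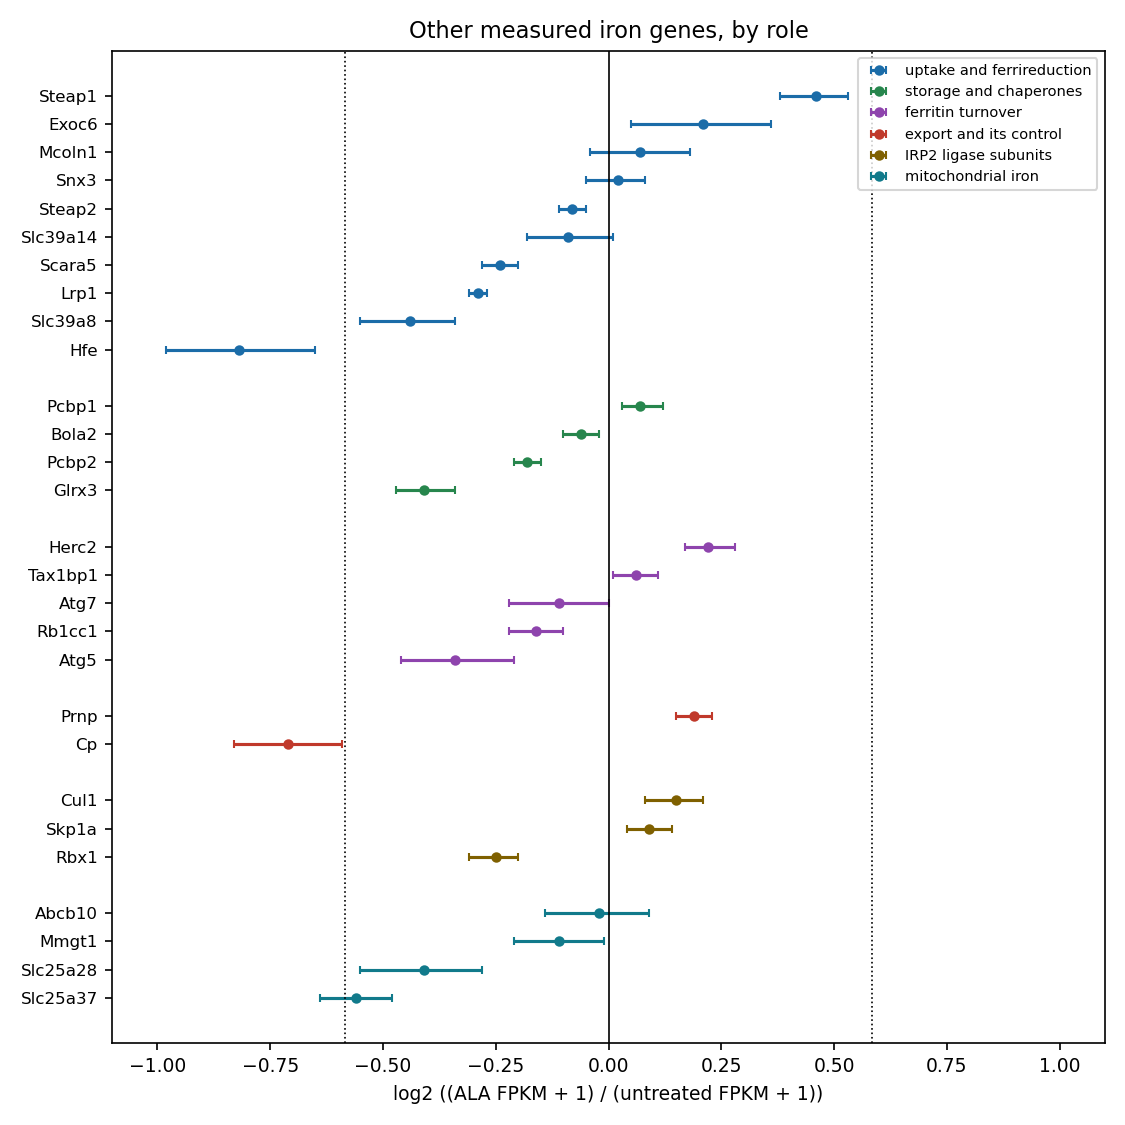
log2 ratio of ALA to untreated for 28 of the 30 measured genes of the wider iron list, by role (colours), with approximate 95% counting intervals; dotted lines mark 1.5-fold. Hfe at -0.82 and Cp at -0.71 lie beyond the lower line and no plotted gene lies beyond the upper one.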

How the data were processed

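The deposited table gives 1 FPKM value per gene and library, in the layout of Cufflinks tracking files, per the file headers. FastQC 0.11.5, TopHat2 2.1.1, Cufflinks 2.2.1 and build mm10 are named in the submitters' processing notes; no source used here gives options, annotation, strand setting or scaling. The deposited interval bounds were equal in 100% of rows and were not used. Because FPKM values are not counts and each group has 1 library, no count model or test was run. Log2 ratios used a pseudocount of 1 FPKM. Depth came from the step size of low values (461 genes for the ratio of the libraries, 1.35), and reads from the FPKM, the longest transcript minus 199 bases, and depth; 23200000 to 25600000 untreated reads fitted nearly as well. The ratio and interval functions were tested on simulated counts. Gene models and hairpins came from GENCODE vM21 (GRCm38, the assembly of mm10). Ftl2 had no row under that name and was not analysed here. Some genes of the fixed lists are not reported here by name.

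The members, lists and tests were chosen with earlier results of these data known. The named genes were the 10 members, wider-list genes at least 1.5-fold apart, the most abundant measured gene of each role, Hmox1 and Srrd; others were named after their values were seen. Analyses used Python 3.11.15, pandas 2.3.3 and numpy 2.4.6.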

Additional observations from a re-analysis of the deposited data

How the results depend on the processing

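Every member kept its sign under all scalings and pseudocounts tried, and the ranges were 0.66 to 0.83 for Tfrc, 0.48 to 0.99 for Slc40a1 and -0.57 to -0.47 for Ncoa4. Tfrc stayed at 1.5-fold in 6 of 6 settings and Slc40a1 in 5 of 6. With a pseudocount of 5 FPKM, 1 member was 1.5-fold higher, 0 wider-list genes were 1.5-fold lower, 194 measured genes were higher and 299 lower at 1.5-fold, and 31 higher and 42 lower at 2-fold. A larger pseudocount shrinks low genes by construction. With 0.1 FPKM the 2-fold counts were 302 higher and 389 lower, against 163 and 220, and 3 wider-list genes were 1.5-fold lower, against 2. With a mean of at least 5 FPKM, which drops Slc40a1 and Hfe, 1 member was higher and 1 wider-list gene lower, the member median was 0.11, and the counts were 349 and 447 at 1.5-fold and 67 and 104 at 2-fold. With equal library totals the member median was 0.29, since that scaling moves all log2 ratios upward. Adding Fthl17, the only other ferritin heavy chain locus by name, left Fth1 at 0.11. No paired analysis was possible because each group has 1 library. No sum with sequence partners of the members was run, since those sharing at least 10% with a member had no row in the table. Glrx3, Pcbp2, Hamp and Hamp2 of the wider list had such a partner with a row, and no sum was run for them either. Hamp and Hamp2 are partners of each other and were listed at 0 in both libraries.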
